A study of Mus musculus with 9 samples.

Results

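Chemokines are small secreted proteins that guide the migration of leukocytes, and chemokine receptors are the proteins on the cell surface that read them. Here the genes of both families were followed in epididymal adipose tissue of mice that lost weight. The members were chosen by name and type: all protein-coding genes of the count table whose symbol is *Ccl*, *Cxcl*, *Ccr* or *Cxcr* followed by a digit, together with *Cx3cl1*, *Cx3cr1*, *Xcl1*, *Xcr1*, *Pf4*, *Ppbp* and *Ackr1* to *Ackr4*. This gave 64 genes of the 56748 in the table (21970 of them protein-coding), namely 41 ligands and 23 receptors. Of these, 47 (30 ligands and 17 receptors) reached 0.5 CPM (the count relative to the library total) in at least 1 library and were tested.

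RNA of bulk epididymal adipose tissue was sequenced in 9 libraries from male wild-type C57BL/6J mice, an inbred strain, that were 8 weeks old when feeding began. All mice were fed a high-fat diet (HFD) for 8 weeks. The Pre libraries were from the end of HFD, and the WL1 and WL2 libraries followed 1 and 2 weeks on a standard diet (SD) after HFD, with 3 libraries in each phase. The labels number the libraries of a phase but do not say that each came from its own animal, so the p-values measure the spread between these libraries, which may in part be technical, and no group kept on SD throughout or on HFD for the added weeks was analysed here.

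A chemokine binds a G protein-coupled receptor that signals through Gi proteins and turns the cell towards the source. Inflammatory CC ligands such as *Ccl2* draw monocytes, which carry *Ccr2*, from blood into tissue, and in obesity this route feeds the macrophages of the fat. Homeostatic ligands such as *Cxcl13*, *Ccl19* and *Ccl21a* place B cells, T cells and dendritic cells in lymphoid tissue. Atypical receptors (the *Ackr* genes) bind chemokines without this signal and take them up or carry them.

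*Ccl8* and *Ccr2* were the genes whose difference from Pre passed the test in every setting tried, and the 250 bases before their annotated starts are shown for that reason (RefSeq, GRCm38.p6, plus strand). Such a window was found for 49 of the 64 members. The letters of 5 motifs were searched on both strands, and capitals mark the matches. Upstream of *Ccl8*, chr11:82114935-82115184 holds a TATA box (TATAAA) from 32 bases before the start and, on the other strand, a PU.1 motif from 240 bases before it. Upstream of *Ccr2*, chr9:124101933-124102182 has no match, which says nothing of the factors themselves. The TATA box letters were found in the windows of 16 of the 49 members (32.7%) and in 12.4% of all 32851 windows. The NF-kappa-B motif, searched as GGGA and CC with any 4 bases between them, stood in 19 (38.8%), against 17.6% of all windows. The PU.1 motif was searched as GAGGAA and stood in 16 (32.7%), against 23.3%. The AP-1 motif was searched as TGANTCA and stood in 7 (14.3%), against 6.75%. The STAT motif was searched as TTCNNNGAA and stood in 4 (8.16%), against 7.02%.
Ccl8: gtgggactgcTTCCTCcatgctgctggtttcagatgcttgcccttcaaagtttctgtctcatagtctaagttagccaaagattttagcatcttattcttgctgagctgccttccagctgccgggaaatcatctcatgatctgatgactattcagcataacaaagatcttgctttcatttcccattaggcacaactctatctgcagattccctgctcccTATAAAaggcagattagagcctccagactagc
Ccr2: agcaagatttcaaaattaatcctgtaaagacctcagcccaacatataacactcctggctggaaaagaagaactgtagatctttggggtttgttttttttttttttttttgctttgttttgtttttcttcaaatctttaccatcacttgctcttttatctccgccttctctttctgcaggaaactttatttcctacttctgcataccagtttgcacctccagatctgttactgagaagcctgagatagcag

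Depth was similar across the libraries, with 16434450 to 22729072 reads counted on genes, so that 0.5 CPM stood for about 8.22 to 11.4 reads. The 64 members took 0.109% to 0.204% of the reads. Pre replicate 2 stood apart in its lymphocyte genes: its 12 T cell markers summed to 70.1 CPM, against 6.60 to 12.0 CPM in the other 8 libraries, and results that rest on it are also given without it. Summed macrophage markers (18 genes, among them *Lyz2*, *Cd68* and *Adgre1*) were 1984 to 3720 CPM at Pre, 3762 to 6911 CPM at WL1 and 2230 to 3969 CPM at WL2, and none of the 18 was at 0. Summed adipocyte markers (12 genes) were 31840 to 40600 CPM at Pre, 22180 to 30160 CPM at WL1 and 34080 to 36430 CPM at WL2. The WL1 libraries thus lay below all others, and the part of this in the differences at WL1 was not tested. The epididymis genes *Lcn9* and *Defb20* had no read.

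Of the 17 members below the filter, 4 had no read in any library: *Ccl20*, *Cxcl15*, *Ccl21b* and *Ccl21d*. No read over the 168334845 reads of the 9 libraries allows up to 0.0178 CPM (3 reads, counting error only). The others were *Ccl1*, *Ccl26*, *Ccl27b*, *Cxcl3*, *Cxcl11*, *Cxcl17*, *Xcl1*, *Ccr1l1*, *Ccr4*, *Ccr6*, *Ccr8*, *Cxcr1* and *Cxcr2*. The receptors of the neutrophil ligands, *Cxcr1* and *Cxcr2*, were thus among the genes below the filter. No gene of these 17 exceeded 0.450 CPM in any library or 29 reads in all.

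Levels of different genes were compared per length, in FPKM (sequenced fragments corrected for gene length and library size, as the authors deposited them). *Ccl6* and *Ccl9*, CC ligands made by myeloid cells, led with means over the 9 libraries of 186.5 and 102.7 FPKM, 47.1% of the FPKM of all ligand genes. Then came the eosinophil attractant *Ccl11* (63.6 FPKM), platelet factor 4 *Pf4* (55.1 FPKM), which macrophages also express, *Ccl2* (36.8 FPKM), *Ccl7* (30.7 FPKM), the atypical receptor *Ackr3* (27.8 FPKM) and the stromal ligand *Cxcl12* (27.4 FPKM). *Ackr3* and *Cxcr4* (16.5 FPKM), which both bind *Cxcl12*, made up 60.2% of the FPKM of the receptor genes. Among the 20 highest genes the ranges over the libraries overlapped between all neighbours in this order. Within libraries *Ccl6* stood above *Ccl9* in 9 of 9, *Pf4* above *Ccl2* in 8 and *Ackr3* above *Cxcl12* in 5, so the last order is not fixed.

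**Figure D1:**
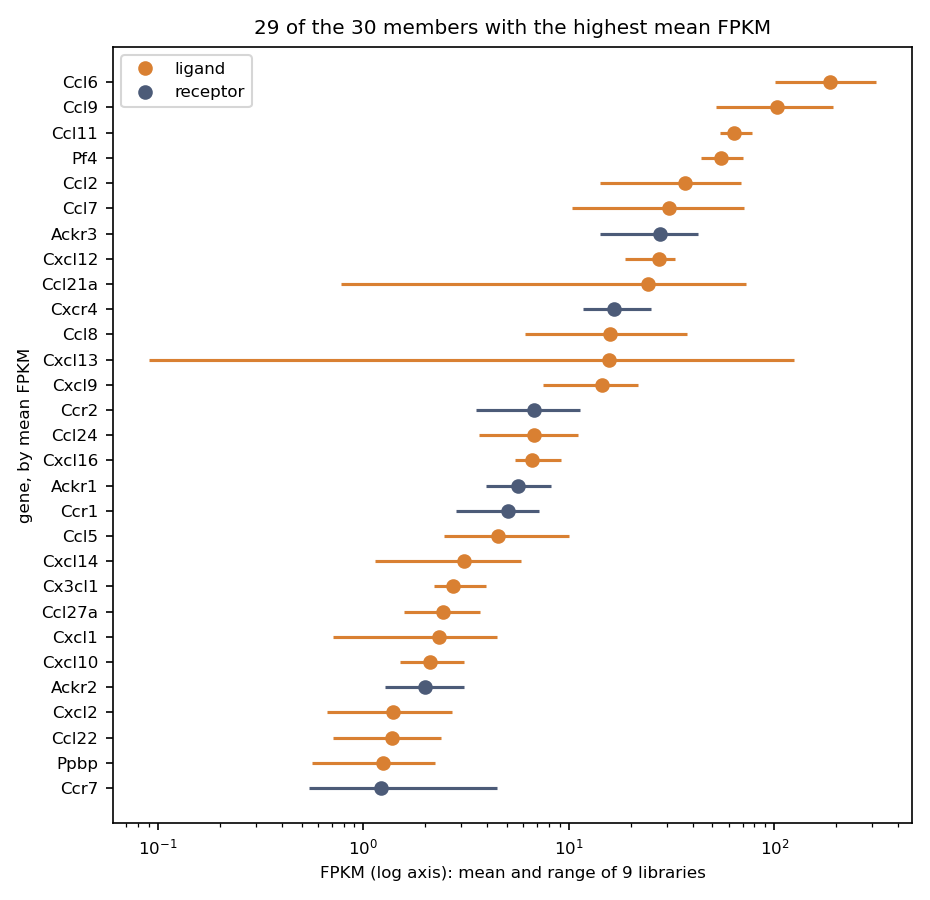
Mean FPKM (points) and range over the 9 libraries (lines) of 29 of the 30 members with the highest mean, on a log axis, with ligands in orange and receptors in blue. *Ccl6* has the highest mean, at 186.5 FPKM, and *Cxcl13* the widest range, from 0.0906 to 125.1 FPKM.

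For the phases, counts were normalised by TMM (trimmed mean of M-values), 1 edgeR quasi-likelihood model was fitted over the 9 libraries, and p-values were adjusted by Benjamini-Hochberg over all 18510 genes tested with a threshold of 0.05. At WL1 against Pre, 2 of the 47 members passed, *Ccl8* and *Ackr4*, both lower (of all genes tested, 7.29% passed, 4.69% as lower). At WL2 against Pre, 5 passed, *Ccl2*, *Ccl7*, *Ccl8*, *Ccr2* and *Cx3cr1*, all lower (all genes: 10.0%, 6.66% lower). At WL2 against WL1, 2 passed, *Ccr2* among them, both lower (all genes: 3.68%, 2.37% lower). These are 4.26%, 10.6% and 4.26% of the tested members, near the shares over all genes. In the test of any difference among the phases 6 of 47 passed, among them *Ccl2*, *Ccl7*, *Ccl8*, *Ccr2* and *Cx3cr1* (all genes: 13.1%). A contrast that sets WL1 against Pre and WL2 averaged was passed by *Ccl8* alone, as lower (all genes: 4.58%, 1.77% lower).

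The number of members that leaned one way is given beside the same for all genes. At WL2 against Pre, 33 of 47 log2 fold changes were below 0 and the median was -0.16, against 49.1% and 0.01 over all genes. At WL1 against Pre, 26 of 47 were below 0 (median -0.16, against 48.0% and 0.02), and at WL2 against WL1 also 26 (median -0.18, against 50.1% and -0.0014). At WL2 against Pre the share below 0 was 15 of 17 for the receptors (median -0.46) and 18 of 30 for the ligands (median -0.09), a difference that was not tested. The leans against Pre rest on Pre replicate 2, the library high in lymphocyte genes. Without it 19 of 47 members lay below 0 at WL2 (median 0.11, against 47.1% and 0.03 over all genes), with 8 of 17 receptors (median 0.02) and 11 of 30 ligands (median 0.14). Without it 20 of 47 lay below 0 at WL1 against Pre (median 0.38, against 46.4% and 0.03), and without WL1 replicate 1 the median at WL1 also turned, to 0.03 with 23 of 47 below 0. At WL2 against WL1, 26 of 47 still lay below 0 without Pre replicate 2 (median -0.18). The comparisons share the Pre or the WL1 libraries, so their signs are not separate evidence.

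**Figure D2:**
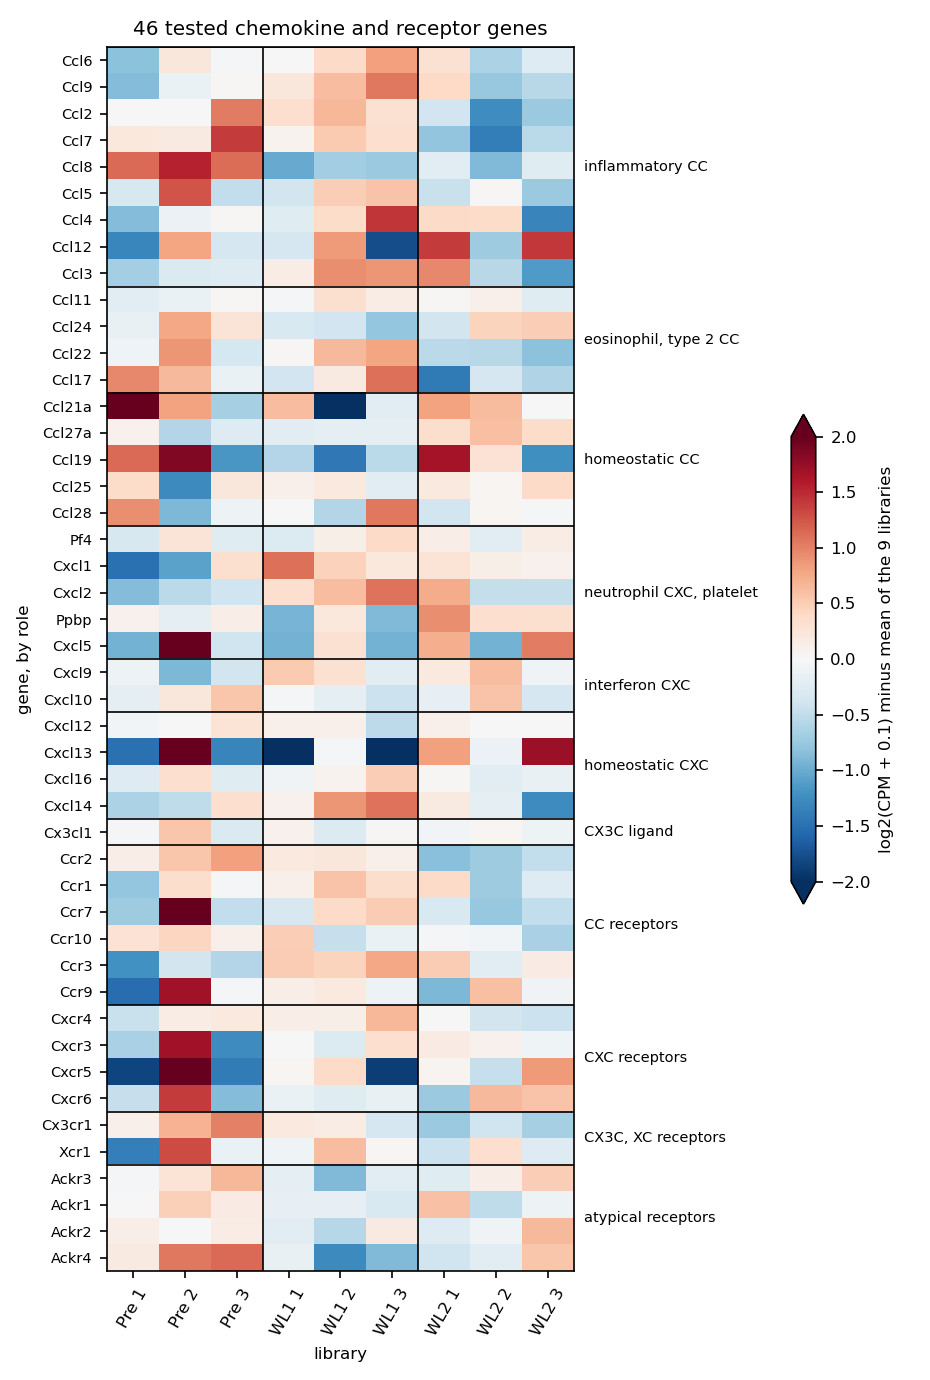
Each row is 1 of 46 of the 47 tested genes, grouped by role, and each column a library; colour is log2(CPM + 0.1) minus the gene's mean over the 9 libraries, limited to 2 either way. *Ccl8* is higher in the 3 Pre libraries than in the other 6, and *Cxcl13*, *Cxcr5*, *Ccr7* and *Cxcr3* stand out in Pre replicate 2.

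*Ccl8* (ENSMUSG00000009185), a monocyte chemoattractant that in mice also acts on *Ccr8*, fell the most of the called genes at both times in the main fit. Without Pre replicate 2 *Ccl7* fell more than *Ccl8* at WL2 against Pre (-1.79 against -1.56), so that order is not fixed. *Ccl8* stood at 15.3, 20.3 and 15.1 CPM in the Pre libraries, at 3.37, 4.22 and 4.10 CPM at WL1, and at 5.86, 3.68 and 5.85 CPM at WL2. Every library after the change of diet was below every Pre library, and WL1 and WL2 overlapped. The level fell by 2.11 on the log2 scale at WL1 (SE 0.22, edgeR adjusted p = 0.00073), to 0.231 of Pre. It fell by 1.72 at WL2 (SE 0.22, edgeR adjusted p = 0.000902), to 0.304 of Pre. Leaving out any 1 of the 9 libraries kept both calls, with log2 fold changes of -2.19 to -1.96 and -1.82 to -1.53. WL2 differed from WL1 by 0.39 (SE 0.22, edgeR adjusted p = 0.349). Set against the average of the other phases, WL1 stood at -1.25 (SE 0.20, edgeR adjusted p = 0.0164) and was lost without any 1 of the 3 WL1 libraries (adjusted p of 0.054 to 0.0753). A fall that lasts to WL2 can also pass that contrast.

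*Ccl2* and *Ccl7*, the neighbouring genes for the main ligands of *Ccr2*, fell at WL2 against Pre and did not pass the test at WL1. *Ccl2* (ENSMUSG00000035385) was at 40.7, 40.9 and 83.5 CPM at Pre, 51.5, 64.7 and 50.3 CPM at WL1, and 31.0, 17.1 and 24.3 CPM at WL2. All 3 WL2 libraries were below all others, while Pre and WL1 overlapped. *Ccl2* fell by 1.19 from Pre to WL2 (SE 0.30, edgeR adjusted p = 0.0305), to 0.438 of Pre. At WL1 against Pre the difference was 0.01 (SE 0.29, edgeR adjusted p = 0.986), and at WL2 against WL1 -1.20 (SE 0.29, edgeR adjusted p = 0.053), short of the threshold. The latter passed with DESeq2, with no filter or a stricter filter on low counts, in the fit of WL1 and WL2 alone, and without any 1 Pre library or WL2 replicate 1. Pre replicate 3 was the highest library, and without it the fall was 0.76 and the call was lost. Without WL2 replicate 2 or 3 it was lost as well (adjusted p between 0.0677 and 0.1187 over these 3), as it was in the fit of Pre and WL2 alone.

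*Ccl7* (ENSMUSG00000035373) had 26.6, 26.0 and 60.7 CPM at Pre, 24.2, 32.9 and 29.1 CPM at WL1, and 13.2, 8.72 and 15.9 CPM at WL2. WL2 again lay below all other libraries, and Pre replicate 3 was again the highest. *Ccl7* fell by 1.58 from Pre to WL2 (SE 0.33, edgeR adjusted p = 0.0153), to 0.334 of Pre, and the call was lost without WL2 replicate 2 (adjusted p = 0.0707). At WL1 against Pre the log2 fold change was -0.40 (SE 0.32, edgeR adjusted p = 0.487) and at WL2 against WL1 -1.19 (SE 0.33, edgeR adjusted p = 0.0752), which passed with DESeq2, without the filter on low counts, in the fit of WL1 and WL2 alone and without Pre replicate 3. Per length, *Ccl2* was 0.968 to 1.65 times *Ccl7* over the 9 libraries, while *Ccl2* itself varied 4.88-fold and *Ccl7* 6.96-fold from its lowest to its highest library.

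**Figure D3:**
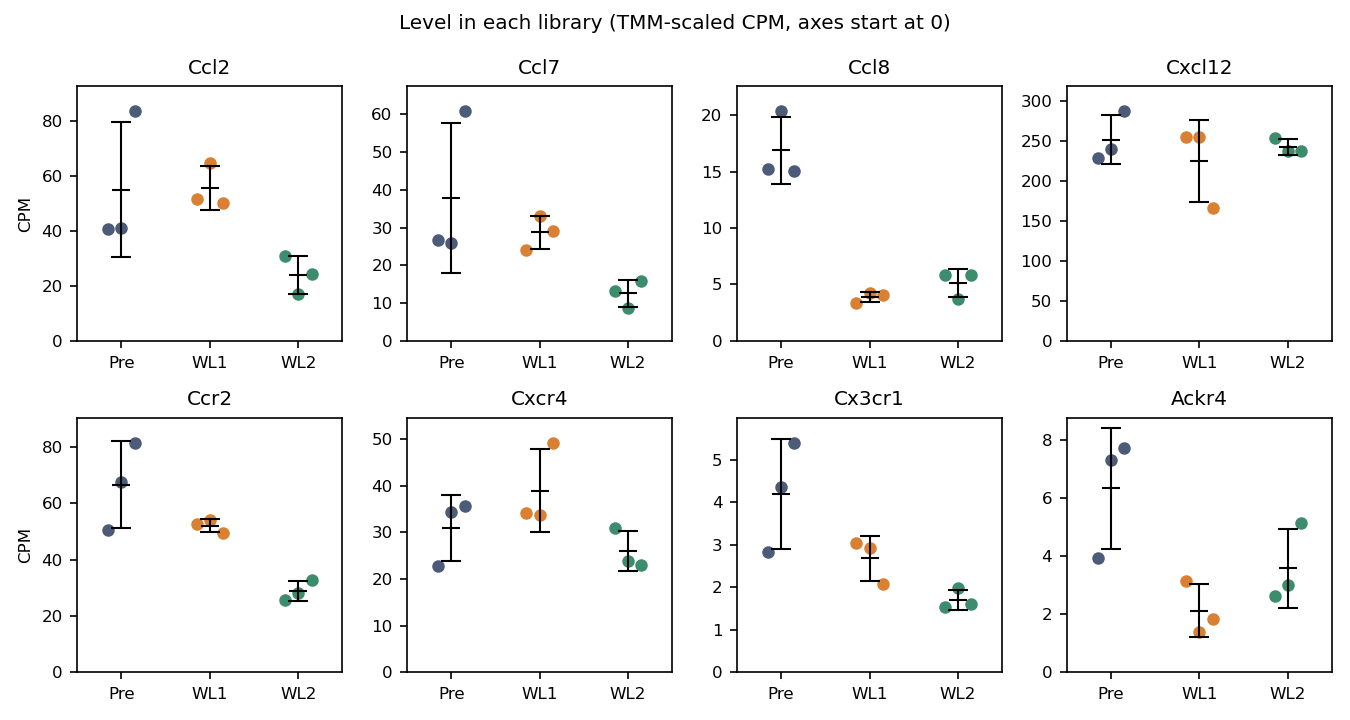
TMM-scaled CPM in each library (points) with the mean and SD of the 3 libraries of a phase (bars), for 6 genes past the threshold between 2 phases and, for comparison, *Cxcl12* and *Cxcr4*. *Ccl8* is low at WL1 and WL2, *Ccl2*, *Ccl7* and *Ccr2* are low at WL2, and *Cxcl12* stays between 166.2 and 287.1 CPM.

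*Ccr2* (ENSMUSG00000049103), the receptor of *Ccl2* and *Ccl7* on inflammatory monocytes, fell together with its ligands at WL2. Its levels were 50.6, 67.6 and 81.4 CPM at Pre, 52.8, 54.0 and 49.6 CPM at WL1, and 25.8, 28.3 and 32.7 CPM at WL2. The WL2 libraries were below the other 6, and the WL1 libraries lay close together within or just below the Pre range. *Ccr2* fell by 1.20 from Pre to WL2 (SE 0.17, edgeR adjusted p = 0.00148), to 0.434 of Pre, and this call held without any 1 library (adjusted p at most 0.0122). From WL1 to WL2 it fell by 0.85 (SE 0.17, edgeR adjusted p = 0.026). The latter was lost without any 1 WL1 library or without WL2 replicate 2 or 3 (adjusted p between 0.0634 and 0.1315). At WL1 against Pre the value was -0.35 (SE 0.16, edgeR adjusted p = 0.213).

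*Cx3cr1* (ENSMUSG00000052336), the fractalkine receptor of patrolling monocytes and some resident macrophages, was a gene of low level. It had 2.83, 4.35 and 5.40 CPM at Pre, 3.04, 2.94 and 2.08 CPM at WL1, and 1.53, 1.98 and 1.62 CPM at WL2. WL2 lay below all other libraries, and WL1 overlapped Pre. It fell by 1.29 from Pre to WL2 (SE 0.30, edgeR adjusted p = 0.0232), and the call was lost without Pre replicate 3 or any 1 WL2 library (adjusted p between 0.0621 and 0.0835). The gene model spans *Gorasp1* and *Csrnp1* on the same strand, with 5326 and 1715 reads against its 492, so shared reads cannot be told apart. Its ligand *Cx3cl1*, made by endothelium and other non-immune cells, was at 11.1, 16.6 and 9.28 CPM at Pre, 12.1, 9.37 and 11.5 CPM at WL1, and 10.9, 11.7 and 10.5 CPM at WL2, and did not pass the test in any comparison (edgeR adjusted p of 0.664 to 0.991).

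*Ackr4* (ENSMUSG00000079355), a scavenger of *Ccl19*, *Ccl21a* and *Ccl25*, was lower at WL1. Its levels were 3.95, 7.33 and 7.75 CPM at Pre, 3.15, 1.38 and 1.86 CPM at WL1, and 2.63, 3.00 and 5.15 CPM at WL2. Every WL1 library lay below every Pre library, and WL2 overlapped both. It fell by 1.58 at WL1 (SE 0.39, edgeR adjusted p = 0.0382), and the call was lost without Pre replicate 2 or 3, WL1 replicate 2 or 3 or WL2 replicate 2 (adjusted p between 0.0565 and 0.1245). *Ackr4* was also lost with limma on log2(FPKM + 1) and log2(FPKM + 0.1) (adjusted p of 0.0527 and 0.0544). *Acad11* overlaps the gene on the other strand with 21328 reads against 679, and whether strand was used in the counting was not given in the sources used here. All 4 atypical receptors had log2 fold changes below 0 at WL1 against Pre, from -1.58 to -0.28, with *Ackr4* alone past the threshold with edgeR. *Ackr3* was at 93.0, 115.4 and 150.9 CPM at Pre, 83.6, 51.4 and 81.0 CPM at WL1, and 80.4, 104.2 and 134.3 CPM at WL2, where WL1 lay below Pre without overlap (-0.74, SE 0.24, edgeR adjusted p = 0.0985). DESeq2 and the fit without the filter on low counts also called *Ackr3* lower at WL1.

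The falls were set beside markers of the cells that carry these genes, since in bulk tissue fewer cells of a type and less RNA per cell cannot be told apart. The 8 monocyte markers, among them *Ly6c2*, *Plac8* and *Fn1*, summed to 938.4 to 1709 CPM at Pre, 882.6 to 1398 CPM at WL1 and 822.4 to 1187 CPM at WL2, with median log2 fold changes of -0.52 at WL1 and -0.97 at WL2 against Pre. With edgeR 0 of the 8 passed in either, 2 had an unadjusted p under 0.05 in each, and DESeq2 called 1 in each. *Fn1* was the most abundant of the 8, and the part of its RNA that came from monocytes was not tested. Of the 18 macrophage markers, *Msr1* alone passed at WL1 against Pre, as higher (median 0.54 at WL1 and 0.03 at WL2). *Lyz2* was the most abundant of the 18, and the part of its RNA that came from macrophages was not tested. Per 1000 CPM of the summed macrophage markers, *Ccr2* was at 18.2 to 25.7 CPM at Pre, 7.18 to 14.0 CPM at WL1 and 6.51 to 12.98 CPM at WL2. *Ccl8* was at 4.76 to 7.70, 0.594 to 0.994 and 1.48 to 2.33 CPM on that scale, and neither overlapped Pre at WL1 or WL2. *Cx3cr1* was at 1.17 to 1.70, 0.301 to 0.808 and 0.386 to 0.889 CPM, *Ccl2* at 11.0 to 26.3, 7.28 to 15.2 and 7.67 to 9.64 CPM, and *Ccl7* at 6.98 to 19.1, 4.21 to 7.75 and 3.34 to 6.31 CPM. The marker sum itself was highest on average at WL1, and *Pf4*, whose own log2 fold change at WL1 was 0.18, also lay below Pre at WL1 on this scale, with 11.2 to 17.0, 7.95 to 10.8 and 11.6 to 18.4 CPM. *Ccl6* by contrast kept to 87.3 to 113.3 CPM and *Ccl9* to 75.1 to 110.8 CPM per 1000 CPM in all 9 libraries. The part of cell numbers in the falls was not tested.

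**Figure D4:**
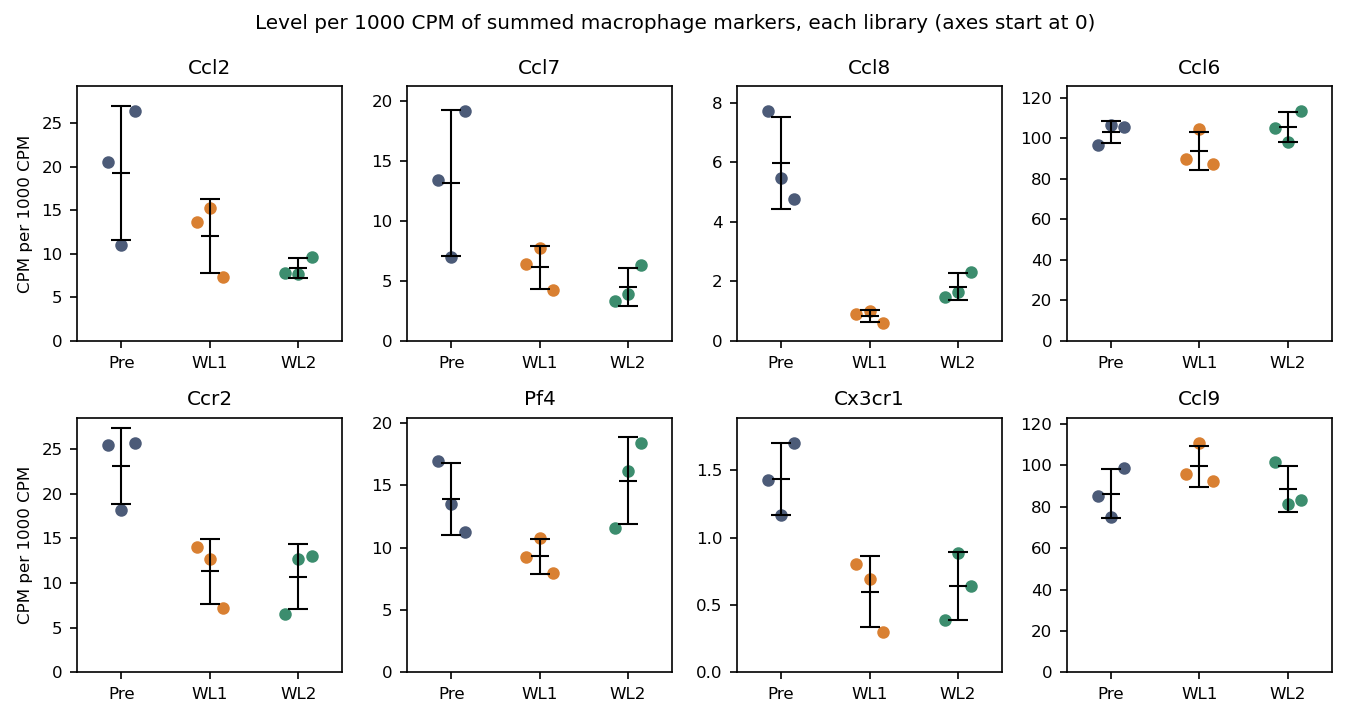
CPM of 8 genes per 1000 CPM of summed macrophage markers in each library (points), with the mean and SD of the 3 libraries of a phase (bars). *Ccl8*, *Ccr2* and *Cx3cr1* are lower at WL1 and WL2 than at Pre without overlap, *Pf4* is below Pre at WL1 alone, and *Ccl6* and *Ccl9* overlap between the phases.

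*Ccl6* and *Ccl9*, the genes of highest level, were higher on average at WL1 but not past the threshold. *Ccl6* was at 192.2, 397.3 and 334.9 CPM at Pre, 338.2, 444.2 and 603.0 CPM at WL1, and 418.1, 219.5 and 285.1 CPM at WL2 (WL1 against Pre 0.58, SE 0.31, edgeR adjusted p = 0.274). *Ccl9* was at 168.8, 279.3 and 312.8 CPM at Pre, 359.7, 471.1 and 637.4 CPM at WL1, and 403.4, 181.0 and 208.9 CPM at WL2. All WL1 libraries exceeded the Pre libraries for *Ccl9*, at a log2 fold change of 0.95 (SE 0.33, edgeR adjusted p = 0.115), and it passed with DESeq2 and without the filter on low counts. Of the other inflammatory CC ligands, *Ccl3* (1.23) and *Ccl4* (1.05) had log2 fold changes above 1 at WL1 at levels of at most 2.14 CPM, and *Ccl12* (0.02) did not. None of them passed.

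*Ccl5*, a ligand made by T and NK cells among others, passed in no comparison. It was at 3.36, 10.2 and 2.95 CPM at Pre, 3.26, 5.97 and 6.30 CPM at WL1, and 3.07, 4.31 and 2.49 CPM at WL2 (edgeR adjusted p of 0.345 to 0.93). Its highest value was in Pre replicate 2, the library high in T cell markers.

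The neutrophil attractants *Cxcl1* and *Cxcl2* leaned higher at WL1. *Cxcl2* was at 1.47, 1.87 and 2.08 CPM at Pre and at 3.53, 4.32 and 6.02 CPM at WL1 without overlap, a log2 fold change of 1.34 (SE 0.38, edgeR adjusted p = 0.0592). At WL2 it was at 4.71, 1.98 and 1.97 CPM, which overlapped both Pre and WL1. WL2 read 0.67 against Pre (SE 0.38, edgeR adjusted p = 0.295) and -0.67 against WL1 (SE 0.37, edgeR adjusted p = 0.333). At WL1 against Pre *Cxcl1* differed by 1.18 (SE 0.43, edgeR adjusted p = 0.129) with 1 Pre library inside the WL1 range. It passed there without Pre replicate 3 and without the filter on low counts. *Cxcl2* passed with DESeq2, without the filter on low counts, in the fit of Pre and WL1 alone and without WL2 replicate 1. The neutrophil markers were low in all libraries, 18.2 to 38.4 CPM summed over 10 genes, and *Ly6g* was at 0. Against Pre, 3 of the 7 tested markers were higher and 4 lower at WL1 (median log2 fold change -0.13). At WL2 5 were higher and 2 lower (median 0.775). Those past the threshold were *S100a8* and *Ltf*. *S100a8* fell from a mean of 15.2 CPM at Pre to 2.77 CPM at WL1 (-2.46, SE 0.52, edgeR adjusted p = 0.0221) and 0.893 CPM at WL2 (-4.07, SE 0.59, edgeR adjusted p = 0.00202), and *Ltf* rose from 0.111 to 0.813 CPM at WL1 (2.84, SE 0.73, edgeR adjusted p = 0.0439). *Pf4* varied little, with 33.7, 50.3 and 35.6 CPM at Pre, 34.7, 45.7 and 54.9 CPM at WL1, and 45.8, 36.0 and 46.3 CPM at WL2, and log2 fold changes between -0.08 and 0.18.

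The interferon-inducible ligand *Cxcl9*, which acts on *Cxcr3* of T cells, was at 42.0, 24.1 and 34.8 CPM at Pre, 64.4, 55.2 and 38.7 CPM at WL1, and 51.5, 68.9 and 42.9 CPM at WL2. WL2 lay above Pre without overlap, but neither 0.65 at WL1 (SE 0.25, edgeR adjusted p = 0.14) nor 0.70 at WL2 (SE 0.25, edgeR adjusted p = 0.105) passed. *Cxcl9* passed at WL2 with DESeq2, and at both times without the filter on low counts. *Cxcl10*, a ligand of the same receptor, was at 3.66 to 7.36 CPM in all libraries and shares its locus with *Art3* on the other strand.

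The eosinophil attractants did not pass with edgeR. *Ccl11* was at 62.8, 67.1 and 74.2 CPM at Pre, 72.0, 91.5 and 80.8 CPM at WL1, and 74.1, 78.9 and 62.1 CPM at WL2, with log2 fold changes of 0.26 (SE 0.13, edgeR adjusted p = 0.249) and 0.08 (SE 0.13, edgeR adjusted p = 0.75) against Pre. *Ccl24* was at 8.02, 15.2 and 10.7 CPM at Pre, 7.17, 6.75 and 5.12 CPM at WL1, and 6.84, 12.1 and 12.5 CPM at WL2, and WL1 lay below Pre without overlap (-0.83, SE 0.29, edgeR adjusted p = 0.109). *Ccl24* passed as lower at WL1 against Pre with DESeq2 and without the filter on low counts. Their receptor *Ccr3* was rare, with 0.295, 0.606 and 0.508 CPM at Pre, 1.19, 1.15 and 1.46 CPM at WL1, and 1.20, 0.680 and 0.927 CPM at WL2. Both later phases exceeded Pre without overlap, and neither 1.41 (SE 0.42, edgeR adjusted p = 0.0699) nor 0.98 (SE 0.42, edgeR adjusted p = 0.175) passed, while DESeq2 and limma on log2(FPKM + 1) called *Ccr3* higher at WL1. Of the 7 eosinophil markers 4 were tested, and *Ear2* alone passed, as it fell at WL2 (-0.80, SE 0.18, edgeR adjusted p = 0.0197). Against Pre, 2 of the 4 were higher and 2 lower at WL1 (median log2 fold change 0.05). At WL2 1 was higher and 3 were lower (median -0.58). *Epx* and *Ear6* had no read. *Ccl22*, a ligand of *Ccr4* made by dendritic cells and macrophages, was 2.45 to 5.90 CPM at Pre and 1.74 to 2.14 CPM at WL2, below Pre and WL1 without overlap and not past the threshold against Pre (-0.91, SE 0.36, edgeR adjusted p = 0.137). At WL2 against WL1 *Ccl22* passed with DESeq2, without the filter on low counts, in the fit of these phases alone and without Pre replicate 2.

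The stromal axis of *Cxcl12* with its receptors showed no difference past the threshold. *Cxcl12* was at 228.7, 239.9 and 287.1 CPM at Pre, 255.6, 254.7 and 166.2 CPM at WL1, and 253.9, 237.3 and 237.1 CPM at WL2. Against Pre it read -0.16 (SE 0.17, edgeR adjusted p = 0.594) and -0.05 (SE 0.17, edgeR adjusted p = 0.865) on the log2 scale. *Cxcr4*, its signalling receptor, was at 22.7, 34.4 and 35.6 CPM at Pre, 34.0, 33.7 and 49.1 CPM at WL1, and 31.0, 24.0 and 23.1 CPM at WL2, lower at WL2 than at WL1 without overlap (-0.58, SE 0.21, edgeR adjusted p = 0.142). *Cxcl16*, which binds *Cxcr6*, was at 17.6, 26.8 and 17.8 CPM at Pre, 20.1, 22.2 and 29.8 CPM at WL1, and 21.6, 18.3 and 19.1 CPM at WL2. *Cxcr6* itself was at 0.885, 3.47 and 0.646 CPM at Pre, 1.14, 1.06 and 1.12 CPM at WL1, and 0.712, 2.04 and 1.91 CPM at WL2, with *Fyco1* overlapping it on the other strand.

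The lymphoid genes were set apart by Pre replicate 2. *Cxcl13*, the B cell attractant of follicles, was at 0.767, 153.1 and 0.877 CPM at Pre, 0.489, 2.30 and 0.112 CPM at WL1, and 4.22, 2.15 and 7.99 CPM at WL2. Its receptor *Cxcr5* was at 0.177, 18.5 and 0.277 CPM at Pre, 0.923, 1.19 and 0.169 CPM at WL1, and 0.931, 0.623 and 1.68 CPM at WL2. Pre replicate 2 thus held 19.2 times the next highest library for *Cxcl13* and 11.0 times for *Cxcr5*. *Ccr7*, which guides T cells and dendritic cells to lymph nodes, was at 1.18, 9.42 and 1.38 CPM at Pre, 1.57, 2.62 and 2.87 CPM at WL1, and 1.59, 1.13 and 1.39 CPM at WL2. The T cell receptor gene *Cxcr3* was at 6.34 CPM in Pre replicate 2 and at 0.738 to 2.42 CPM elsewhere. In all, 14 of the 47 tested members had their highest level in this library, 12 in WL1 replicate 3 and 7 in Pre replicate 3.

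No comparison of *Cxcl13* passed in the edgeR fit with the filter, although WL1 against Pre read -5.65 (SE 1.83, edgeR adjusted p = 0.0923), and without the filter on low counts it passed at WL1 and at WL2 against Pre. Without Pre replicate 2 the same comparison of *Cxcl13* read 0.27 (SE 0.93, edgeR adjusted p = 0.902) and WL2 against Pre 2.53 (SE 0.91, edgeR adjusted p = 0.128), so the direction at both times rests on that library. *Cxcr5* likewise went from -3.02 to 1.71 at WL1 and from -2.54 to 2.19 at WL2, none past the threshold. *Bcl9l* overlaps *Cxcr5* on the other strand. Without Pre replicate 2, *Ccr7* also turned at WL1, from -0.76 to 0.87, and *Cxcr3* from -0.49 to 1.04, none past the threshold. The 10 B cell markers summed to 1128, 2774 and 1255 CPM at Pre, 172.7 to 291.9 CPM at WL1 and 162.8 to 248.5 CPM at WL2, and *Ighm*, their most abundant gene, fell by 3.01 at WL1 (SE 0.37, edgeR adjusted p = 0.00151). Almost all of that sum was *Ighm*: the other 9 B cell markers summed to 8.26, 272.7 and 9.23 CPM at Pre, 7.08 to 14.5 CPM at WL1 and 14.1 to 25.6 CPM at WL2, and so were high in Pre replicate 2 alone, as were *Cxcl13* and *Cxcr5*. Markers of lymph node stroma and high endothelial venules (9 genes, of which *Enpp2*, also a product of adipocytes, was the most abundant) summed to 238.7 CPM in Pre replicate 2, 156.0 and 160.2 CPM in the other Pre libraries, 98.8 to 113.8 CPM at WL1 and 137.9 to 254.1 CPM at WL2. The part of lymphoid tissue in these values was not tested.

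Of the ligands of *Ccr7*, *Ccl21a*, from lymphatic endothelium and lymph node stroma, was at 67.7, 26.0 and 9.32 CPM at Pre, 22.96, 0.735 and 12.8 CPM at WL1, and 26.0, 23.2 and 14.8 CPM at WL2, with its highest level in Pre replicate 1 and its lowest in WL1 replicate 2. *Ccl19* was at 1.30, 2.20 and 0.185 CPM at Pre, 0.326, 0.138 and 0.337 CPM at WL1, and 1.92, 0.680 and 0.174 CPM at WL2. Neither passed (edgeR adjusted p of 0.196 or more). *Ccl21a*, *Ccl21b* and *Ccl21d* are near-identical copies, as are *Ccl27a* and *Ccl27b*, so how their reads were shared is uncertain. *Ccl27a*, which overlaps *Il11ra1* on the other strand, was the member nearest to the threshold as higher at WL2, with 3.97 to 6.43 CPM at Pre and 7.72 to 9.23 CPM at WL2 (0.68, SE 0.20, edgeR adjusted p = 0.0559), and it passed with DESeq2, limma and upper quartile factors.

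**Figure D5:**
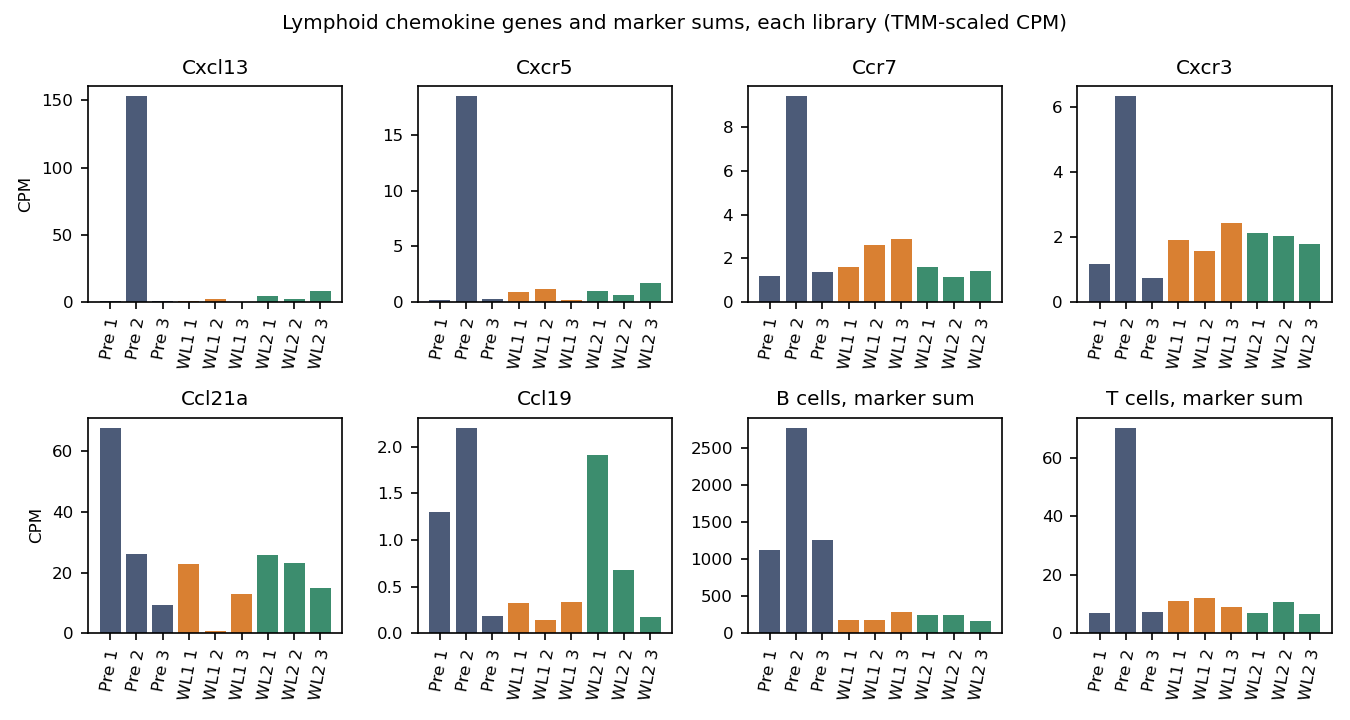
TMM-scaled CPM in each of the 9 libraries (bars, coloured by phase) for 6 lymphoid chemokine and receptor genes and for the summed B cell and T cell markers. *Cxcl13*, *Cxcr5*, *Ccr7*, *Cxcr3* and the B cell and T cell sums peak in Pre replicate 2, and *Ccl21a* peaks in Pre replicate 1.

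Many members sit in clusters, given here by the coordinates of the deposited table. The notes of the submitters name GRCm38, but 4 of the 64 members have the coordinates of GENCODE M21 on that build, so the table's positions are printed without a build. The monocyte chemoattractant cluster on chromosome 11 (81926397 to 82196516) holds *Ccl2*, *Ccl7*, *Ccl11*, *Ccl12*, *Ccl8* and *Ccl1*. Within its 270.1 kb, *Ccl2*, *Ccl7* and *Ccl8* fell at WL2 against Pre, *Ccl11* stood at 0.08 and *Ccl12* at 1.17 (SE 0.92, edgeR adjusted p = 0.45), at 1.33 CPM or less. The macrophage inflammatory cluster on the same chromosome (83416604 to 83555509), with *Ccl5*, *Ccl9*, *Ccl6*, *Ccl3* and *Ccl4*, had a median of 0.95 at WL1 and 0.06 at WL2 against Pre. With edgeR 0 of its 5 genes passed in either, where 1 and 0 had an unadjusted p under 0.05 and DESeq2 called 1 and 0. The cluster of *Cxcl5*, *Ppbp*, *Pf4*, *Cxcl3*, *Cxcl15*, *Cxcl1* and *Cxcl2* on chromosome 5 (90907219 to 91053797) had 5 genes tested and a median of 0.57 at WL2 against Pre, where edgeR and DESeq2 called 0 and 0 had an unadjusted p under 0.05.

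Downstream of the receptors, 36 genes of a list of 38 for chemokine receptor signalling (G proteins, kinases and adaptors) were tested. At WL1 against Pre, 3 rose and 0 fell (8.33%, against 7.29% of all genes): *Rgs1*, which ends G protein signals (2.30, SE 0.52, edgeR adjusted p = 0.0264), the PI3-kinase subunit *Pik3r5* (1.53, SE 0.38, edgeR adjusted p = 0.0396) and *Elmo1*, a partner of DOCK proteins in migration (0.58, SE 0.15, edgeR adjusted p = 0.0399). At WL2 against Pre, 4 fell and 0 rose (11.1%, against 10.0%): the Src-family kinase *Fgr* (-1.64), the receptor kinases *Grk6* (-0.59) and *Grk3* (-0.59), and *Ptk2b* (-0.48). At WL2 against WL1, 3 fell and 0 rose (8.33%, against 3.68%): *Dock2*, which drives leukocyte migration (-1.41, SE 0.32, edgeR adjusted p = 0.0436), *Grk3* (-0.81) and *Lyn* (-0.65). In the 3 comparisons in this order, 13, 11 and 24 of the 36 had an unadjusted edgeR p under 0.05 (all genes: 4496, 4806 and 3960 of 18510). DESeq2 called 7, 6 and 15 of the 36 (all genes: 2344 of 16263, 2717 of 16976 and 1935 of 16263). The median log2 fold changes of the list were 0.29, -0.26 and -0.62, against 0.02, 0.01 and -0.0014 over all genes. In the last of these comparisons 36 of the 36 genes lay below 0, as did 50.1% of all genes. Many of these genes are expressed by macrophages, whose summed markers were also highest on average at WL1, and the part of this was not tested.

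Of 30 genes for chemokine-like ligands, related receptors and chemokine-cleaving proteases, 2 rose and 1 fell at WL1 against Pre (10.0%, against 7.29% of all genes): *Ptafr*, the receptor of platelet-activating factor (1.10, SE 0.28, edgeR adjusted p = 0.0413), *Cmtm3* (0.82, SE 0.17, edgeR adjusted p = 0.0192) and the chemerin receptor *Cmklr1* (-0.56, SE 0.14, edgeR adjusted p = 0.0417). At WL2 against Pre, 1 rose and 2 fell (10.0%, the same share as over all genes): the sphingosine phosphate receptor *S1pr1* (0.56, SE 0.12, edgeR adjusted p = 0.0149), the leukotriene B4 receptor *Ltb4r1* (-1.85, SE 0.42, edgeR adjusted p = 0.0207) and *Cd74*, the invariant chain and receptor of *Mif* (-0.96, SE 0.26, edgeR adjusted p = 0.0414). At WL2 against WL1, 0 of 30 passed with edgeR, where 11 had an unadjusted p under 0.05 and DESeq2 called 7.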

How the data were processed

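The authors deposited whole-number counts per gene, without normalization, and FPKM of the same 9 libraries. The submitters' processing notes name HISAT2, HISAT, TopHat2, CASAVA, GRCm38 and mm10. Since the counting program and strand setting were not given in the sources used here, overlapping genes are marked as uncertain. The implied FPKM library total was 0.995 to 1.01 times the count sum at Pre and 1.07 to 1.12 times at WL1 and WL2, so FPKM served for levels between genes and TMM-scaled CPM for phases.

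Every gene that reached 0.5 CPM in 1 or more libraries entered an edgeR 4.0.16 fit under R 4.3.3 (glmQLFit, glmQLFTest, TMM factors of 0.933 to 1.07, common dispersion 0.0478), with Benjamini-Hochberg adjustment over all 18510 genes. SEs were taken from the F statistic. DESeq2 1.42.0, limma 3.58.1 on log2(FPKM + 1) and log2(FPKM + 0.1), other filters and scaling factors, the compared groups alone, the replicate number as a block and leaving out each library in turn were alternatives. On simulated counts of 18510 genes, 85 of 100 genes changed 4-fold and 63 of 100 changed 2-fold were recovered at WL1 against Pre, 43 of 50 and 25 of 50 in each of the other comparisons of phases, and 77 of 100 and 42 of 100 in the transient contrast. The changed genes were drawn from those with a mean above 1 CPM, so these shares do not cover members below that. Of each 100, 50 were changed equally at WL1 and WL2, so the transient shares are not for changes at WL1 alone. Replicates differed beyond counting noise (chi-square over its degrees of freedom 9.88 to 53.8), so none was the same library sequenced again. This does not show that each came from its own animal.

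The members and lists were chosen with earlier results of these data known. Values in all libraries are given for members past the threshold, the 8 with the highest mean FPKM and named ligand and receptor axes, and pathway genes are named where they passed, at most 3 in each direction of a comparison, with *Ptk2b* and the other members singled out added after their values were seen. The result of 1 further member that passed is not reported here. Sequences came from RefSeq promoter windows (GRCm38.p6).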

Additional observations from a re-analysis of the deposited data

How the results depend on the processing

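*Ccl8* at WL1 and at WL2 and *Ccr2* at WL2 against Pre passed in every setting, and no named log2 fold change of a called gene reversed (142 kept their call and 37 lost it). Without the filter on low counts, 9 members passed from Pre to WL1, 6 from WL1 to WL2, 9 in the transient contrast and 14 for any difference, and with DESeq2 7, 7, 8 and 12. Calls over all genes changed with the setting too. Without the filter 1861, 1668, 1496 and 3369 of 29550 genes passed in these comparisons. DESeq2 called 2344 of 16263, 1935 of 16263, 1925 of 15556 and 4104 of 16976 genes. Limma on log2(FPKM + 0.1) gave 1 at WL1 against Pre, limma on log2(FPKM + 1) called *Ccr3* in place of *Ackr4* there, and limma with either offset gave 1 at WL2 against WL1, as did upper quartile factors. Of all 18510 genes, limma called 1198 (offset 0.1) and 1301 (offset 1) at WL1 against Pre. At WL2 against WL1 limma called 546 and 537 genes, and upper quartile factors gave 704. Fits of the compared groups alone gave 3 from Pre to WL2 and 6 from WL1 to WL2 (all genes: 1302 and 1051 of 18510). The replicate block gave 1, 4 and 1 for the comparisons of phases, 1 for the transient contrast and 3 for any difference, losing *Ackr4* at WL1 and *Ccl2* at WL2 against Pre. Of all 18510 genes the block fit called 844, 1399, 330, 272 and 1560 in that order. Same-numbered libraries did not deviate together (correlations of -0.277 to 0.107, against -0.197 to 0.239 for different numbers). With 3 libraries in a phase this cannot exclude that the numbers pair them. Leaving out 1 library gave 1 to 3 members at WL1 against Pre, 2 to 6 at WL2 against Pre, 0 to 5 at WL2 against WL1, 0 to 5 for the transient contrast and 2 to 9 for any difference. Of all 18510 genes these fits called 507 to 1490, 746 to 1680, 37 to 1347, 11 to 1334 and 1056 to 2471. The count at WL2 against WL1 was 0 without any 1 WL1 library or without WL2 replicate 2 or 3. There 37 to 262 of all 18510 genes passed, against 681 in the main fit, so the loss was not particular to the members. With upper quartile factors the genes called at WL2 against WL1 split into 340 higher and 364 lower, against 242 and 439, and those of the transient contrast into 460 and 440, against 520 and 328. The cause was not tested. Several members lie near 0.5 CPM, about 8.22 to 11.4 reads, where counting error is wide.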

Other observations

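Other cell marker lists that bear on the sources of chemokines are given as values. Lipid-associated macrophage markers (12 genes) had 6 members past the threshold as higher at WL1 against Pre, *Cd9*, *Ctsk*, *Trem2*, *Gpnmb*, *Mmp12* and *Atp6v0d2*, with a median log2 fold change of 1.50 (edgeR). Their sum was mostly *Lpl*, which adipocytes also express, in 7 of the 9 libraries, and the other 11 genes summed to 1740 to 2500 CPM at Pre, 4953 to 10460 CPM at WL1 and 1829 to 5657 CPM at WL2. *Fabp5* of this list was lower at WL2 against WL1. Of the 7 dendritic cell markers *Cd209a* alone passed, as lower at WL1 (-1.03) and at WL2 (-0.62) against Pre (edgeR). At WL1 3 of the 7 were higher and 4 lower (median log2 fold change -0.05). At WL2 2 were higher and 5 lower (median -0.47). NK cell markers summed to 3.89 to 8.60 CPM in all libraries and platelet markers to 10.4 to 22.7 CPM. Mesothelial markers ranged from 43.5 to 793.7 CPM, hepatocyte markers from 3.67 to 93.6 CPM with their highest sum at Pre, fibroblast and progenitor markers from 3488 to 6099 CPM, endothelial markers from 1305 to 2498 CPM, lymphatic endothelial markers from 69.2 to 175.1 CPM, smooth muscle and pericyte markers from 427.9 to 915.0 CPM, and dendritic cell markers from 176.3 to 277.5 CPM.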
